A study of Homo sapiens with 4 samples.

Results

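The zinc finger genes of human chromosome 19 named ZNF and a number were described in a human breast cancer cell line, MDA-MB-231, with and without long-term cadmium. The genes were chosen by name and place alone: protein-coding symbols of that form on chromosome 19 gave 240 of the 61541 genes in the count table, 131 on the plus strand and 109 on the minus strand. Of these, 211 had a mean raw count of at least 20 over the 4 libraries and are called expressed here. Another 14 had fewer reads, and 15 were listed at 0 in all libraries. No expressed gene had a control mean below 20, and 1 had a cadmium mean below 20.

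Proteins of this family bind DNA through C2H2 zinc fingers, short loops in which paired cysteines and paired histidines hold a zinc ion. Many also carry a KRAB domain, which recruits the corepressor TRIM28 and through it the histone methyltransferase SETDB1 and the HP1 proteins, and several of them silence transposable elements. The genes multiplied largely by tandem duplication, so chromosome 19 carries them in dense clusters of similar neighbours. Cadmium can take the place of zinc in protein sites, and the metal-responsive factor MTF-1, which zinc activates, is itself a zinc finger protein.

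The cells treated with cadmium had been passaged in medium with cadmium sulfate and held at 10 µM, and the control cells were parental MDA-MB-231 passaged without it. Each group had 2 RNA-seq libraries. The control columns of the count table carry the numbers 2 and 3 while the sample labels number the controls 1 and 2, so the controls are named control 2 and control 3 after their columns. The labels call the controls biological replicates and say nothing on separate cultures for the cadmium libraries, all from 1 cell line, so p-values measure only the spread between these libraries.

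Total counts ran from 51934729 to 61916007 per library. Of the 5 genes chosen as present in this line, VIM, CD44, EGFR and AXL were high, and SPARC had 48 to 153 raw counts. Among the 4 chosen as low, ESR1 and PGR had 2 to 30 raw counts, while CDH1 and GATA3 had 113 to 1047. None of the 3 markers of other cells (PTPRC, PECAM1, COL1A1) was at 0. Of the genes that answer to cadmium, the metallothionein MT2A was higher in the cadmium libraries by 2.06 on the log2 scale (DESeq2 adjusted p = 9.41e-06), MT1X by 2.87 and the heme oxygenase HMOX1 by 2.48. Both groups are bulk RNA, in which fewer cells of a type and less RNA per cell cannot be told apart.

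All 240 genes held the codon pattern of at least 1 zinc finger in their coding sequence, and the number of fingers ran from 1 to 36 with a median of 12, reaching 31 among the expressed genes. Their repeated sequence is shown for 4 genes picked after their values were seen, so they do not stand for the family. ZNF493 and ZNF83 were higher in control 3 than in control 2, and ZNF358 and ZNF296 were higher in control 2. Each line is the hg38 coding sequence of a pair of neighbouring fingers, 147 bases, with the codons of the zinc-binding cysteines and histidines in capitals. For ZNF493 it lies in exon 4 of 4 at chr19:21423209-21423355 on the plus strand, for ZNF83 in exon 2 of 2 at chr19:52614052-52614198 on the minus strand, for ZNF358 in exon 2 of 2 at chr19:7519699-7519845 on the plus strand, and for ZNF296 in exon 3 of 3 at chr19:45072186-45072332 on the minus strand.
ZNF493: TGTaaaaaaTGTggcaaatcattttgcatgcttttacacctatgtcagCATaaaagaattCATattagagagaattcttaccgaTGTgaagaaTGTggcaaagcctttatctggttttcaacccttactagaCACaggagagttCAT
ZNF83: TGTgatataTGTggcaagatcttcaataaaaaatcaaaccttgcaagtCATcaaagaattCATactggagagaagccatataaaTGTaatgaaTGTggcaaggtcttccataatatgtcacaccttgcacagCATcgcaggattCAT
ZNF358: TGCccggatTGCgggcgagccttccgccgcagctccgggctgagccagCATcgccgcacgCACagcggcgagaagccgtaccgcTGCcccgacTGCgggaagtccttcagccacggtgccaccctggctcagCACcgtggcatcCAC
ZNF296: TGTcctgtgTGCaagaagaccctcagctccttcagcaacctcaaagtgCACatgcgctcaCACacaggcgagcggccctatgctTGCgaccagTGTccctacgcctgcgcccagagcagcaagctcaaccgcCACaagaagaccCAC
The 4 stretches hold the same spacing of capital codons, and between them the bases differ widely. The GC content was 35.4% for ZNF493, 36.7% for ZNF83, 71.4% for ZNF358 and 59.9% for ZNF296.

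The sequence that the genes share also bears on how well they were counted, since reads that fell in several places or over several genes had been dropped. Of the 211 expressed genes, 22 shared more than 10% of their 150-base windows with another gene and 5 shared more than 50%. Exons of 121 overlapped those of another gene, 68 of them on the opposite strand and 71 on the same strand, some on both. Strand was ignored in counting. Counts of such genes are low estimates, and reads in exons that a gene shares with an antisense partner were lost to both.

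Expression of the family was low. Normalized counts are raw counts divided by the size factor of each library. Per kb of exon, the expressed genes had a median mean normalized count of 94.1, against 295 for all protein-coding genes above the same minimum. The range was 6.53 to 1861. Of the 211 genes, 197 had a mean raw count of at least 100 and 49 of at least 1000. ZNF146, which encodes a protein made almost wholly of zinc fingers, had the highest level per kb. Its normalized counts were 7152 and 7274 in control 2 and control 3 and 8714 and 7706 in cadmium 1 and cadmium 2, both cadmium libraries above both controls by a log2 fold change of 0.19 (SE 0.25). Just inside the minimum were ZNF625, with raw counts of 10 and 34 in the controls and 18 and 26 in the cadmium libraries, and ZNF57, with 23 and 20 against 26 and 19. Just outside were ZNF564, with 8 and 6 against 10 and 22, of whose windows 82.05% lay in another gene as well, and ZNF154, with 8 and 28 against 13 and 9. ZNF154 is known for promoter methylation in many tumours.

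The study's comparison asks which genes differ between cadmium-treated and control cells. No ZNF gene of chromosome 19 was called in it. DESeq2 called 0 of the 211 at an adjusted p below 0.1, against 1.14% of the 19816 genes tested, of which 119 were higher (0.601%) and 106 lower (0.535%). The edgeR quasi-likelihood test and limma-voom also called 0 of the 211, but each called 0 of all genes too. Before adjustment, 0 of the 211 had a p below 0.05 by DESeq2, edgeR or limma-voom, where the share of all genes above the same minimum was 7.68%, 7.44% and 7.36%. The lowest DESeq2 p was 0.0715, for ZNF699, with an adjusted p of 0.789.

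**Figure D1:**
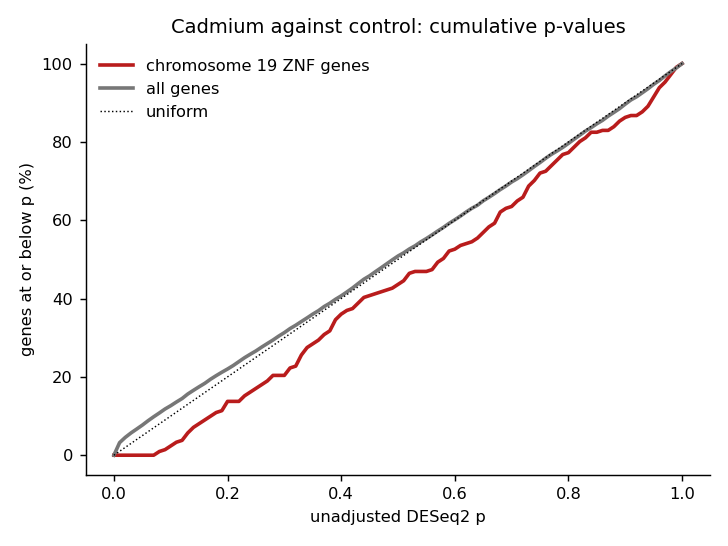
Share of genes (%, y axis) at or below each unadjusted DESeq2 p (x axis) for cadmium against control, for the 211 expressed ZNF genes of chromosome 19 and for all genes with a mean raw count of at least 20; the dotted line is a uniform spread. The line of the ZNF genes stays at 0% until past 0.05 on the x axis, where that of all genes is at 7.68%, and lies under it over most of the axis.

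The fold changes were small beside their errors. They ran from -0.73 to 1.10 on the log2 scale with a median standard error of 0.34, and 1 of the 211 exceeded 1 in size, against 7.41% of all genes above the minimum. That gene, ZNF709, was singled out after its values were seen. It had raw counts of 9 and 37 in the controls and 38 and 65 in the cadmium libraries, and 92.1% of its windows lay in another gene as well. A difference of modest size could be present in many of these genes without being detectable with 2 libraries a group.

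The 8 genes with the lowest p among those higher in cadmium were ZNF699, ZNF419, ZNF836, ZNF566, ZNF234, ZNF224, ZNF230 and ZNF850. ZNF699, a relative of the fly gene hangover, had normalized counts of 258 and 794 in control 2 and control 3 and 1183 and 836 in cadmium 1 and cadmium 2. Its controls lay further apart than control 3 and either cadmium library, with a log2 fold change of 0.94 (SE 0.52). ZNF419, the source of a minor histocompatibility antigen, had 346 and 544 in the controls and 711 and 665 in the cadmium libraries, and its log2 fold change was 0.63 (SE 0.35). ZNF836 had 115 and 175 against 254 and 220. In these 3 genes both cadmium libraries lay above both controls, with control 2 the lowest.

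ZNF224, a KRAB repressor first described at the aldolase A promoter, had normalized counts of 425 and 657 in the controls and 837 and 759 in the cadmium libraries. Its log2 fold change was 0.56 (SE 0.34). Its cluster neighbours ZNF234, with 299 and 561 against 652 and 705, and ZNF230, with 294 and 371 against 489 and 463, followed the same order of groups. ZNF850, a gene with 29 fingers, had 566 and 863 against 1051 and 1004. ZNF566 alone of the 8 had control 2 above control 3, at 344 and 327 against 565 and 424, and its log2 fold change was 0.56 (SE 0.33). None of these genes passed the test, with DESeq2 adjusted p-values of 0.789 to 0.894. The log2 fold change of ZNF699 was 1.96 without control 3 and 0.35 without control 2, and that of ZNF224 was 0.90 and 0.28. That of ZNF566 was 0.51 and 0.59.

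Among those lower in cadmium, the 8 genes with the lowest p were ZNF358, ZNF296, ZNF626, ZNF823, ZNF837, ZNF574, ZNF71 and ZNF653. ZNF358 had normalized counts of 1972 and 1276 in control 2 and control 3 and 1210 and 1168 in cadmium 1 and cadmium 2, a log2 fold change of -0.45 (SE 0.33). ZNF296, which is known for work in reprogrammed stem cells, had 566 and 321 against 303 and 311, a log2 fold change of -0.53 (SE 0.40). In both, control 2 stood far above the other 3 libraries, which lay close together. Without control 3 their log2 fold changes were -0.74 and -0.89, and without control 2 they were -0.10 and -0.07.

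ZNF574 had 2242 and 2388 in the controls and 1991 and 1796 in the cadmium libraries, and its controls lay close together. ZNF71, known as a gene induced by TNF in endothelium, had 911 and 921 against 725 and 764, a log2 fold change of -0.30 (SE 0.27). ZNF626 had 343 and 359 against 283 and 236. These 3 genes had both cadmium libraries below controls that differed little, and ZNF823, with 326 and 358 against 282 and 218, did too. ZNF837 had 268 and 220 against 174 and 185, and ZNF653 had 740 and 619 against 585 and 510. All 8 had DESeq2 adjusted p-values between 0.944 and 1.00.

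**Figure D2:**
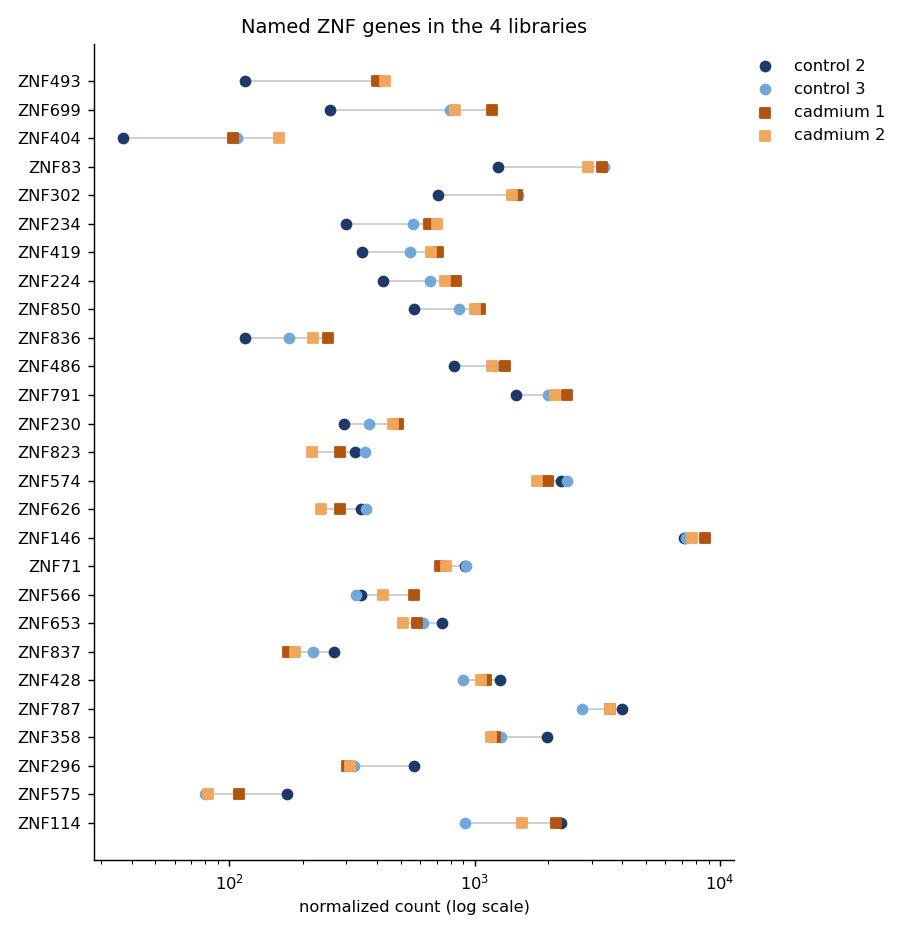
Normalized counts (x axis, log scale) of the 27 ZNF genes named for their p, their level or their control ratio, 1 row a gene, in order of the ratio of control 3 to control 2; circles are the controls, squares the cadmium libraries. In the upper rows control 2 lies apart to the left of the other 3 libraries, as for ZNF493 (115 against 402 to 430), and in rows near the bottom it lies to the right, as for ZNF296 (566 against 303 to 321).

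The genes differed more between the controls, in the median, than between the groups. The median log2 ratio of control 3 over control 2 was 0.42 over the 211 genes, a fold of 1.33, with quartiles of 0.20 and 0.68, and 188 of the 211 were higher in control 3. Over all genes above the minimum that median was -0.03. Between the cadmium libraries the ZNF median of cadmium 2 over cadmium 1 was -0.11, against 0.02 for all genes. Cadmium 1 and cadmium 2 were above control 2 by medians of 0.40 and 0.33, and lay at -0.01 and -0.11 from control 3. These ratios share libraries and are not independent of each other.

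**Figure D3:**
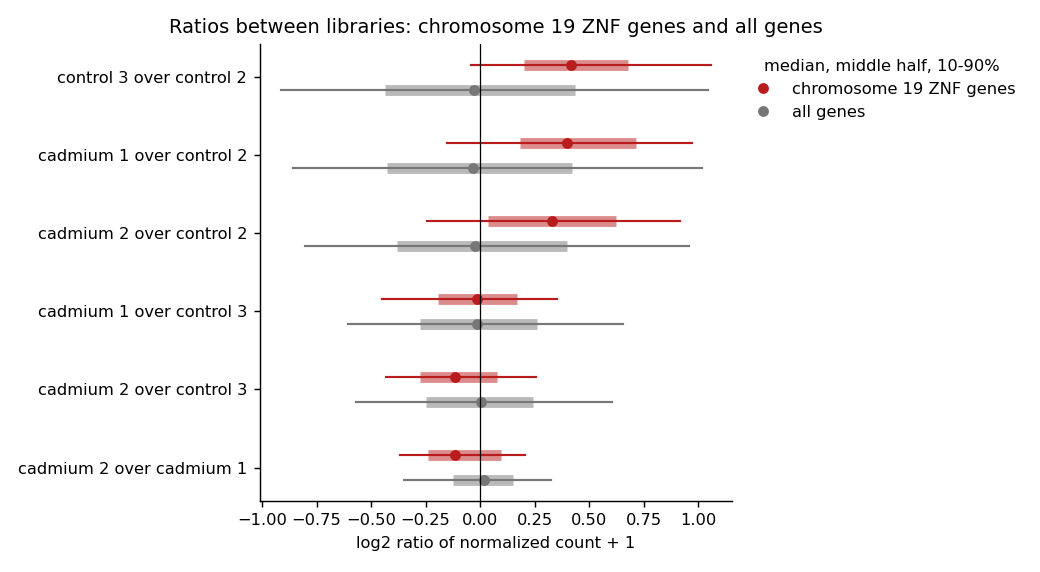
Log2 ratios of normalized count + 1 (x axis) for each pairing of the 4 libraries (rows); points are medians, thick bars the middle of the genes from lower to upper quartile, thin lines the 10% to 90% range, for the 211 expressed ZNF genes of chromosome 19 and for all genes with a mean raw count of at least 20. The ZNF medians lie at 0.33 to 0.42 in the 3 rows that hold control 2 and at -0.11 to -0.01 in the others, while those of all genes stay near 0.

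Gene by gene, control 2 was the lowest of the 4 libraries in 156 of the 211 (73.9%), where it was the lowest for 34.7% of all genes above the minimum. It was the highest in 15 (7.11%), against 38.7% of all genes. Control 3 exceeded control 2 more than 2-fold in 25 of the 211, near the share of all genes (10.5%). It was more than 2-fold lower in 2 (all genes, 8.57%). In either direction, the controls differed more than 2-fold in 12.8% of the 211, against 19.1% of all genes. The cadmium libraries differed more than 2-fold in 2 of the 211, and in 386 of the 16647 genes above the minimum. As a share of all counts, the 240 genes held 0.228% in control 2, against 0.298% in control 3 and 0.311% and 0.285% in the cadmium libraries.

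Other values separated the controls as well. The 3 markers of other cells summed to normalized counts of 662 and 1916 in the controls and 1303 and 1378 in the cadmium libraries. PECAM1, of endothelium, had raw counts of 169 and 792 against 689 and 649, and PTPRC, of leukocytes, had 2 and 135 against 37 and 43. The 4 markers chosen as low summed to 1128 and 1225 against 792 and 644. Among them CDH1 was higher in control 3, with raw counts of 113 and 578 against 170 and 121, while ESR1, PGR and GATA3 were higher in control 2. The part of these differences in the ZNF ratios was not tested.

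The median log2 fold change of cadmium over control was 0.12 over the 211 genes, with 151 above 0 and 60 below, beside -0.04 over all genes. Without control 2 the median was -0.05, and without control 3 it was 0.34. Its direction therefore rested on control 2. Left with control 3 alone, DESeq2 called 3 of the 211 (2 higher and 1 lower) and 13.9% of all genes above the minimum. Left with control 2 alone, it called 56 (54 higher and 2 lower) and 36.1% of all genes. In both fits the lone control was assumed to vary like the cadmium libraries. Both cadmium libraries lay above both controls in 50 of the 211 (23.7%; all genes, 19.4%) and below both in 21 (9.95%; all genes, 21.5%).

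The largest ratios between the controls, among genes with a mean raw count of at least 100, were those of ZNF493, ZNF699 and ZNF404. ZNF493 had normalized counts of 115 and 407 in control 2 and control 3 and 402 and 430 in cadmium 1 and cadmium 2, a log2 ratio of the controls of 1.81. ZNF404 had 36.9 and 107 against 104 and 160, a ratio of 1.52. In both genes control 2 stood alone as the lowest. Control 3 lay beside both cadmium libraries in ZNF493, and beside cadmium 1 but below cadmium 2 in ZNF404. At the other end were ZNF114, ZNF575 and ZNF296. ZNF114, a gene with 3 fingers, had 2249 and 914 against 2138 and 1562, and here control 3 was the library apart. ZNF575 had 172 and 79.7 against 109 and 81.9. The log2 ratios of these 2 genes were -1.30 and -1.10.

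**Figure D4:**
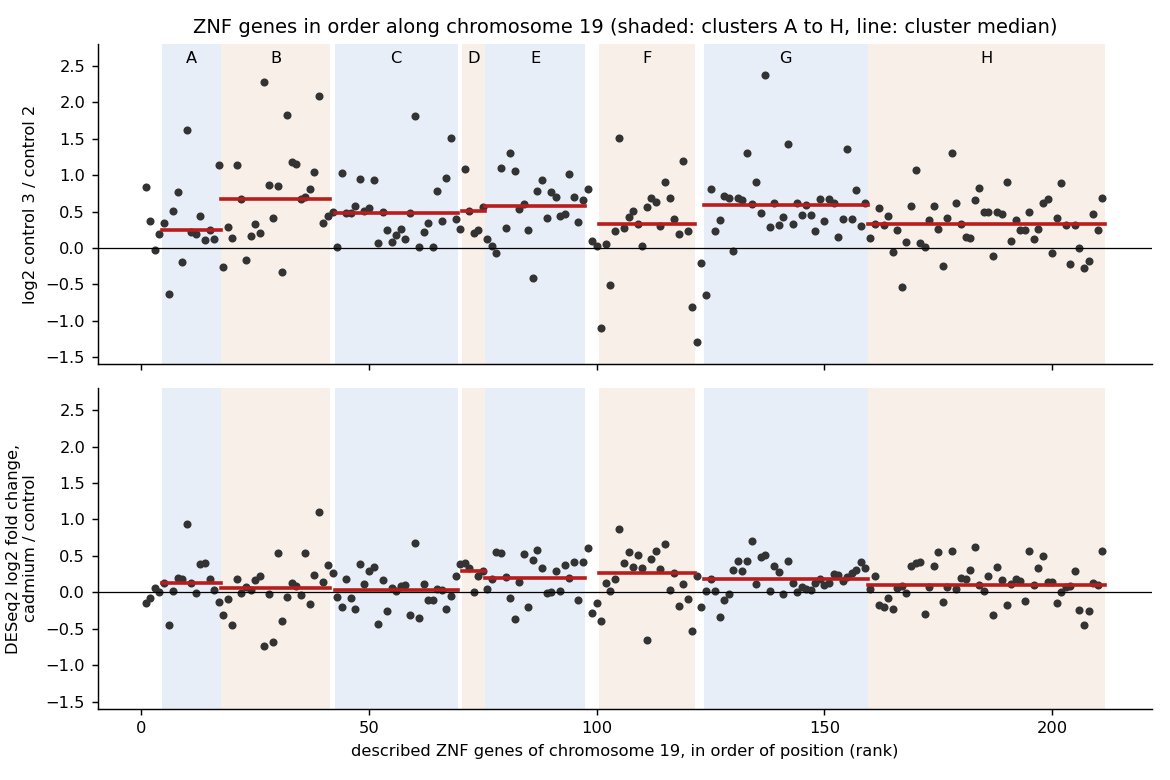
The 211 expressed ZNF genes in order along chromosome 19 (x axis, rank), with the log2 ratio of control 3 over control 2 (upper panel) and the DESeq2 log2 fold change of cadmium over control (lower panel). Shading marks the 8 clusters A to H and red lines their medians, which are 0.24 to 0.67 in the upper panel and 0.03 to 0.29 in the lower one.

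Ordered by position and split where more than 1 Mb separated neighbours, 226 of the 240 genes fell into 8 clusters, A to H, and 14 lay scattered between them. Cluster A, chr19:7069703-9793180 on the short arm, held 15 genes, 13 of them expressed. Its median log2 ratio of control 3 over control 2 was 0.24 and its median log2 fold change 0.12. ZNF358 had its highest level per kb, and ZNF699 also lies here.

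Cluster B, chr19:11483427-12640098, held 25 genes, 24 of them expressed. Its control ratio was the highest of the 8, with a median of 0.67, while its median log2 fold change was 0.06. ZNF791 led it per kb, with normalized counts of 1474 and 1993 in the controls and 2373 and 2132 in the cadmium libraries. Cluster B also had the lowest median level, 53.0 per kb, and its genes had the largest median standard error, 0.45. It holds ZNF709, ZNF20 and ZNF490, of whose windows 92.1%, 72.33% and 55.78% lay in another gene as well, while ZNF791 shared 0%. Counts of genes with shared windows are low estimates, and their part in these medians was not tested.

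Cluster C, chr19:19668796-24129968, next to the centromere, held 37 genes, of which 27 were expressed. Of the 15 family members at 0 in every library, 9 lie here. All 27 expressed genes were higher in control 3 than in control 2, with a median of 0.47, and both cadmium libraries lay above both controls in 0 of the 27 (all genes, 19.4%) and below both in 3 (11.1%; all genes, 21.5%). The median log2 fold change was 0.03, with 15 above 0 and 12 below. The highest per kb was ZNF486, with 828 and 1210 against 1327 and 1177. ZNF91, the gene with 31 fingers, and ZNF93 repress SVA and LINE-1 transposons and were added for that role with their values already seen. ZNF91 had 609 and 1049 in the controls and 913 and 801 in the cadmium libraries, and ZNF93 had 474 and 710 against 469 and 542. In each the cadmium libraries were near or between the levels of the controls, with log2 fold changes of 0.05 (SE 0.37) and -0.23 (SE 0.35).

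Cluster D, chr19:34677639-34964229 on the long arm, held 5 genes, all expressed, with a median control ratio of 0.51 and a median log2 fold change of 0.29. ZNF302, the highest per kb, had 709 and 1498 in the controls and 1488 and 1421 in the cadmium libraries. Cluster E, chr19:36182276-37817300, held 24 genes, 22 of them expressed, among them ZNF146, ZNF566 and ZNF850. Its medians were 0.57 for the controls and 0.20 for cadmium over control, and both cadmium libraries lay above both controls in 9 of the 22 (40.9%; all genes, 19.4%).

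Cluster F, chr19:43525497-45076478, held 24 genes, 21 of them expressed, and includes ZNF224, ZNF230 and ZNF234. It had the highest share of genes with both cadmium libraries above both controls, 11 of 21 (52.4%), where all genes gave 19.4%, and a median log2 fold change of 0.26. That median was above 0 in each fit without 1 library, from 0.15 to 0.46, as was that of cluster D, from 0.036 to 0.59. The medians of clusters A, B, C, E, G and H reached values below 0 without control 2. Cluster F had a median control ratio of 0.33. ZNF428, a gene with 1 finger and the highest per kb here, had 1268 and 893 in the controls and 1117 and 1067 in the cadmium libraries. No gene of cluster F passed the test.

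Cluster G, chr19:51571283-53580269, held 39 genes, 36 of them expressed. Of these, 34 were higher in control 3 than in control 2, with a median of 0.59, and 32 had a log2 fold change above 0, with a median of 0.18. ZNF83 was the highest per kb. Its normalized counts were 1247 and 3356 in the controls and 3294 and 2903 in the cadmium libraries, so that control 2 stood alone, and its log2 fold change was 0.43 (SE 0.46). ZNF331, an imprinted gene at the end of the cluster, added for that role with its values seen, had 939 and 1442 against 1548 and 1453.

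Cluster H, chr19:55476617-58481230, next to the end of the long arm, was the largest, with 57 genes, of which 52 were expressed. Its medians were 0.32 for the controls and 0.10 for cadmium over control. ZNF787, the highest per kb, had 3990 and 2742 in the controls and 3555 and 3559 in the cadmium libraries, which lay between them. The 14 scattered genes, 11 of them expressed, had medians of 0.20 and -0.00.

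The control ratio was set beside that of other genes. The 752 other protein-coding genes of chromosome 19 above the minimum had a median of control 3 over control 2 of -0.09. The 69 of them that lie within the spans of clusters A to H, with zinc finger symbols of other forms left out, had -0.18. On the whole chromosome, 14 of the 752 carried such symbols (ZFP, ZSCAN, ZIM, ZIK, PEG3 and ZNF with a letter at the end), and their median was 0.37. The 210 ZNF genes of other chromosomes had 0.07, and 4 of them were called in the comparison of cadmium and control, where 1.14% of all genes tested were. The corresponding medians of the log2 fold change were -0.11, -0.15, 0.10 and 0.02.

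Base composition went with the control ratio. The transcripts of the expressed ZNF genes had a median GC content of 42.4%, against 48.5% for all protein-coding genes above the minimum. A limit of 55%, set after the values were seen, left 188 genes at or below it and 23 above. The classes differed in other traits too. In that order, the median transcript length was 4078 and 2050 bases, the median number of fingers 13 and 7, and the median level 85.9 and 327 per kb. Which of these traits bore on the control ratio was not tested. In the 188, the median control ratio was 0.46, control 2 was the lowest library in 148 (78.7%), and both cadmium libraries lay above both controls in 49 (26.1%) and below in 11 (5.85%). In the 23, the median ratio was 0.03, control 2 was the lowest in 8 (34.8%), and both cadmium libraries lay above both controls in 1 (4.35%) and below in 10 (43.5%). ZNF358, ZNF296, ZNF575, ZNF428 and ZNF787 are among the 23. All of these were higher in control 2, but 14 of the 23 were higher in control 3. ZNF114, with the lowest control ratio of the family, is among the 188.

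**Figure D5:**
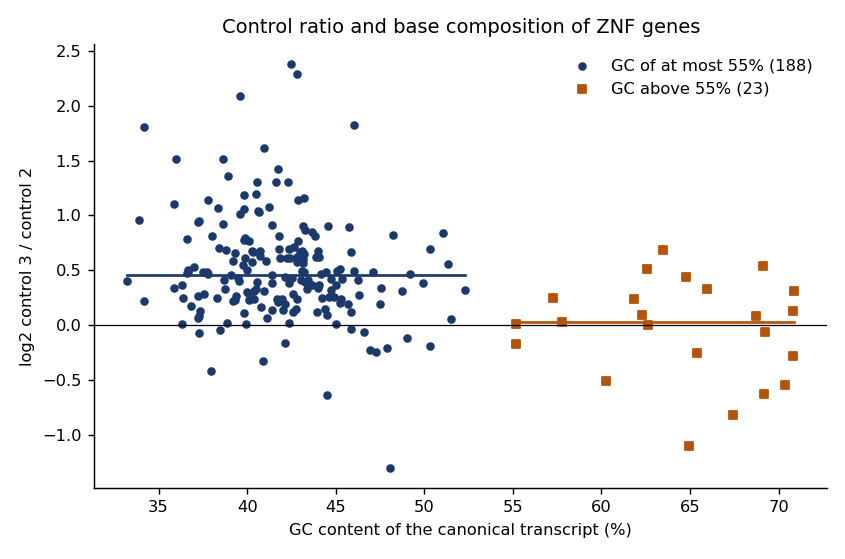
Log2 ratio of control 3 over control 2 (y axis) against the GC content of the canonical transcript (%, x axis) for each expressed ZNF gene of chromosome 19; lines are the medians of the 188 genes with a GC content of at most 55% (0.46) and of the 23 above (0.03). Genes with a low GC content lie mostly above 0, and those above 55% lie on both sides.

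Among other protein-coding genes the medians of these GC classes lay closer together. Those with a GC content of at most 55%, 8860 genes, had a median control ratio of -0.06, and the 4044 above it had -0.10. Both cadmium libraries lay above both controls in 19.4% and below in 21.2% of the former, and in 13.9% and 29.4% of the latter. The lean towards lower values at a high GC content was thus present in other genes too. Across the 211 genes the Spearman correlation of GC content with the control ratio was -0.30. Its points share the same 2 libraries and, within clusters, sequence. With a trend on GC content removed from each library, the median log2 fold change of cadmium over control was 0.13 over the 211, and 0.12 without that step. The control ratio under that setting is not given here.

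In the list of 27 genes of the KRAB corepressor and of heterochromatin, 0 were called by DESeq2, where 1.14% of all genes were, or by edgeR, which called 0 of all genes. An unadjusted p below 0.05 was found in 0 of the 27 by DESeq2, against 7.68% of all genes above the minimum. By edgeR, whose filter left out ATF7IP2, it was found in 0 of 26, against 7.44%. Of the 27, 11 had a log2 fold change above 0 and 16 below, with a median of -0.02, and their median control ratio was -0.11. TRIM28, the scaffold that KRAB domains bind, had normalized counts of 39449 and 27159 in the controls and 34378 and 35507 in the cadmium libraries, which lay between them, with a log2 fold change of 0.07 (SE 0.30). SETDB1 had 1559 and 1637 against 1663 and 1675, a log2 fold change of 0.06 (SE 0.25). The SETDB1 partner ATF7IP2, named after its values were seen, had raw counts of 1309 in control 2, 0 in control 3 and 8 in each cadmium library. Its p was 0.0752. The other 26 genes of the list had log2 fold changes from -0.29 to 0.32.

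MTF-1 acts at metal response elements, so the core of that element was searched for in the promoters, 250 bases before to 50 after each start, from RefSeq on GRCh38.p14. The paper cites earlier work in which MTF-1 activated by cadmium did not rely on the standard element. It places most changes of MTF-1 binding with cadmium away from gene starts. The letters were TGCACNC and TGCGCNC on both strands, and 210 of the 240 symbols had a promoter. The core was found in 93 of the 232 promoters of expressed ZNF genes (40.09%) and in 29.55% of all 35116 promoters. The ZNF promoters held a median of 20 CpG dinucleotides, against 14 in all. The AP-1 letters TGACTCA and TGAGTCA were found in 2.16% of the ZNF promoters and 4.95% of all. Promoters of ZNF83, low in control 2, and ZNF296, high in control 2, both hold the core, in capitals. For ZNF83 the window is chr19:52690447-52690746 on the minus strand, with 2 overlapping matches, and for ZNF296 it is chr19:45076429-45076728 on the minus strand, with 1.
ZNF83 promoter: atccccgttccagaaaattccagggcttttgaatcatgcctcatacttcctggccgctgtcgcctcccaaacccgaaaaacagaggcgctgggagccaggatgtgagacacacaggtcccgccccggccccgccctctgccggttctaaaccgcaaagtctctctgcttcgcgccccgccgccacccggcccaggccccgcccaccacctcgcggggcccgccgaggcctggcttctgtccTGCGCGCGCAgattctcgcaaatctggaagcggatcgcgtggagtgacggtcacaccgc
ZNF296 promoter: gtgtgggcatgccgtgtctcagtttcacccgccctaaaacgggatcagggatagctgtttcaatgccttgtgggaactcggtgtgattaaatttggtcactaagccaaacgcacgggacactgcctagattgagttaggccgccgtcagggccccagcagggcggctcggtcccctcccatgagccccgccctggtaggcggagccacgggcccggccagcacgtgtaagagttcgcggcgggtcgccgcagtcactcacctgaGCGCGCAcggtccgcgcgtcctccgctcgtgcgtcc
Both windows are rich in GC, at 65.7% for ZNF83 and 64.3% for ZNF296, unlike the finger sequence of ZNF83 printed above. A match to these letters is a description of the window, and binding was not analysed here.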

How the data were processed

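Total RNA of control and cadmium-treated MDA-MB-231 cells was sequenced in read pairs (the labels give genomic DNA as the molecule, but describe RNA extraction and an mRNA library kit). The authors removed adaptors, mapped reads with HISAT2 on hg38 and counted them over Ensembl release 105 genes with featureCounts 2.0.1, per the methods and the header. The deposited values are raw counts per gene with no normalization. Default counting ignored strand, dropped reads with several places or genes and counted each mate, and 70.6% to 71.5% of counts of 1 to 20 were even, so counting error is larger than the counts give.

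Symbols were matched for 61369 of 61541 identifiers, and gene type, coding sequence and GC content came from GENCODE 44. Coordinates are those of the count table. DESeq2 1.42.0 in R 4.3.3 was fitted to all genes (design: group, with a two-sided Wald test, independent filtering at a mean of 7.69 and a threshold of 0.1 on p-values adjusted by Benjamini-Hochberg), as the study used DESeq2. Ratios of single libraries used the log2 of the normalized count plus 1. Levels per kb divide by exon length. A finger was read as in-frame codons for 2 cysteines and 2 histidines, with 2 to 4, then 12, then 3 to 5 codons between them. Alternatives were edgeR 4.0.16, limma 3.58.1 (voom), other scalings and filters, trends on length and GC content, halved counts and leaving out each library. The trend on GC content and the fits without genes of overlapping exons or shared windows were chosen after seeing the data.

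Named genes were the 8 with the lowest p in each direction, the highest per kb of each cluster, the 3 largest and 3 smallest control ratios among genes with a mean raw count of at least 100, the 2 on each side of the minimum count, TRIM28 and SETDB1. The genes, lists and tests were chosen with earlier results of these data known. Scripts were tested on simulated data with 200 changed genes. At a 2-fold change DESeq2 recovered 36.5% of them with 74 false calls, and edgeR recovered 0% with 11 false calls. At an 8-fold change they recovered 89.5% and 84.5%, with 121 and 38 false calls. Tables were made with Python 3.11.15.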

Additional observations from a re-analysis of the deposited data

How the results depend on the processing

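With 2 libraries a group, the test could detect only large changes, counts of genes with shared or overlapping sequence are low estimates, and no batch is given in the labels. No ZNF gene of chromosome 19 was called with TMM or upper-quartile factors, without independent filtering, with at least 10 counts in 2 libraries, with protein-coding genes only, with trends on length or GC content removed, with halved counts or at a threshold of 0.05, nor by edgeR or limma-voom, which called 0 of all genes in either direction where DESeq2 called 119 and 106. Under these settings the median log2 fold change of the ZNF genes ran from 0.11 (TMM factors) to 0.18 (upper-quartile factors, which moved the median of all genes from -0.04 to 0.02), and it was 0.12 without genes of overlapping exons and without those of shared windows. Leaving out 1 library, the median ran from -0.046 to 0.34, higher calls among the ZNF genes from 0 to 54 and lower calls from 0 to 2. Over all genes, higher calls then ran from 9 to 2678 and lower calls from 5 to 3511, and over the corepressor list from 0 to 5 and 0 to 7. Cluster medians ran from -0.028 to 0.29 in A, -0.22 to 0.34 in B, -0.13 (without cadmium 1) to 0.21 in C, 0.036 to 0.59 in D, -0.017 to 0.47 in E, 0.15 to 0.46 in F, -0.082 to 0.45 in G and -0.020 to 0.28 in H. Named genes whose log2 fold change kept its direction over the 4 fits include ZNF699 (0.35 to 1.96), ZNF419 (0.34 to 0.98) and ZNF836 (0.43 to 1.03). The same held for ZNF234 (0.27 to 1.17), ZNF224 (0.28 to 0.90), ZNF230 (0.36 to 0.68) and ZNF850 (0.25 to 0.85). It held too for ZNF358 (-0.74 to -0.10), ZNF296 (-0.89 to -0.07) and ZNF791 (0.18 to 0.60). ZNF486 (0.047 to 0.58), ZNF404 (0.29 to 1.82) and ZNF493 (0.030 to 1.84) kept theirs as well. Leaving out 1 library turned the direction of ZNF302 (-0.045 to 1.03), ZNF428 (-0.23 to 0.29), ZNF83 (-0.12 to 1.30), ZNF787 (-0.18 to 0.37) and ZNF114 (-0.29 to 1.02). It also turned that of ZNF575 (-0.86 to 0.26), ZNF625 (-0.73 to 1.19), ZNF57 (-0.20 to 0.26), ZNF154 (-1.45 to 0.52) and TRIM28 (-0.19 to 0.36). The cause was not tested. No paired analysis was possible because the numbers on the control columns are not those of the labels.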
